A study of Homo sapiens with 12 samples.

Results

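The stress-activated branch of MAP kinase signalling was followed through 10 genes in Huh7, an established cell line from a human hepatocellular carcinoma. They are the JNK genes MAPK8 and MAPK9, the p38 genes MAPK14 and MAPK13, the ERK3 gene MAPK6, the upstream kinases MAP2K4, MAP2K7 and MAP4K4, the JNK scaffold MAPK8IP3 and the ERK3 partner kinase MAPKAPK5. They were picked by symbol among the 60666 genes of the deposited Huh7 table, with no threshold on their values. The TPM of the same control and shFAM111B libraries were known when they were picked, so the differences between these groups are given for the 10 genes as a description. Where their calls are counted under the rule used for all genes, the count stands beside the share of all genes and supports nothing. The control cells received a lentiviral control sequence and the shFAM111B cells a lentiviral shRNA against FAM111B, both followed by puromycin selection, and each group had 3 libraries. The study's oligo table lists a single shRNA for FAM111B, and its sources do not say whether the libraries came from separate cultures, so the spread between them may be technical. Hep3B libraries were not analysed here.

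JNK and p38 kinases stand at the end of cascades that carry stress and cytokine signals. A kinase of the MAP4K or MAP3K class switches on a MAP2K, the MAP2K phosphorylates a threonine and a tyrosine in the activation loop of the MAP kinase, and the MAP kinase then acts on transcription factors and on further kinases. JNK is activated by the products of MAP2K4 and MAP2K7, and p38 mainly by those of MAP2K3 and MAP2K6. In hepatocytes these kinases are known for their part in cell death, steatosis and regeneration. ERK3, the product of MAPK6, is an atypical MAP kinase with a single phosphorylated serine in the loop, and it is known as a short-lived protein that binds MK5, the product of MAPKAPK5.

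Expression was deposited as TPM, a measure per transcript length, so that levels of different genes can be compared per length within a library. The deposited values summed to between 978634 TPM (shFAM111B replicate 2) and 997094 TPM (control replicate 3) per library. TPM keep no sequencing depth, which leaves the counting error unknown. The 14394 genes that reached 1 TPM in 3 or more libraries were tested with limma's moderated test on log2(TPM + 1), and all log2 fold changes below are shFAM111B minus control on that scale, which understates the changes of genes with few TPM. The standard errors below come from that test, which draws the spread of each gene towards a trend over all tested genes. A gene was called where it differed 2-fold or more with P under 0.05. The shRNA target, CTGCCTAGTGATTCTCATT, was found in 5 annotated transcripts of FAM111B and in 0 transcripts of each of the 10 genes when both strands were searched, and FAM111B had 8.04 ± 0.229 TPM in control and 0.977 ± 0.146 TPM in shFAM111B cells (SD, n = 3). All 10 listed hepatocyte genes had at least 1 TPM in every library. They summed to 27950 to 28520 TPM in control and to 41570 to 46540 TPM in shFAM111B libraries, but 6 of the 10 had lower means in shFAM111B cells, among them ALB (6444 and 4161 TPM) and HNF4A (98.1 and 40.6 TPM), while AFP had 7274 and 23060 TPM. The 3 immune genes, of which CD3E stayed under 1 TPM and CD68 made up most of the level, summed to 15.1 to 18.6 and to 21.9 to 23.5 TPM, and the 5 stromal and endothelial genes, of which 3 stayed under 1 TPM, to 8.58 to 10.2 and to 11.0 to 16.1 TPM. The groups also differed in features of the libraries. The 13 mitochondrial protein-coding genes summed to between 189116 and 194350 TPM in the control libraries and to between 69675 and 74465 TPM in the shFAM111B libraries, and the 17 5S ribosomal RNA genes were listed at 0 in the controls and at 1486 to 33059 TPM in the shFAM111B libraries. The median tested gene had a log2 fold change of -0.36. The part of these features in the values below was not tested beyond the rescalings given with them.

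All 10 genes had lower TPM in each shFAM111B library than in every control library. Their summed level was 365.8 ± 11.1 TPM in control and 142.4 ± 3.41 TPM in shFAM111B cells (SD, n = 3). In bulk RNA, fewer cells with a transcript and less of it per cell cannot be told apart. MAPK13 lay under the filter, and the other 9 genes entered the fit across all genes. Of these, 6 met the call rule and were lower, where 23.7% of all tested genes were, and 0 were called higher, where 6.82% were (30.5% in either direction). All 9 were lower when no limit was set, as were 64.7% of all tested genes. Groups that do not overlap, in either direction, were found for 75.2% of all tested genes. The genes were picked on this contrast, so nothing is read from these counts. The median log2 fold change of the 9 genes was -1.31, with MAPK8IP3, MAPK6 and MAPK8 at the low end and MAPKAPK5 at the high end.

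**Figure D1:**
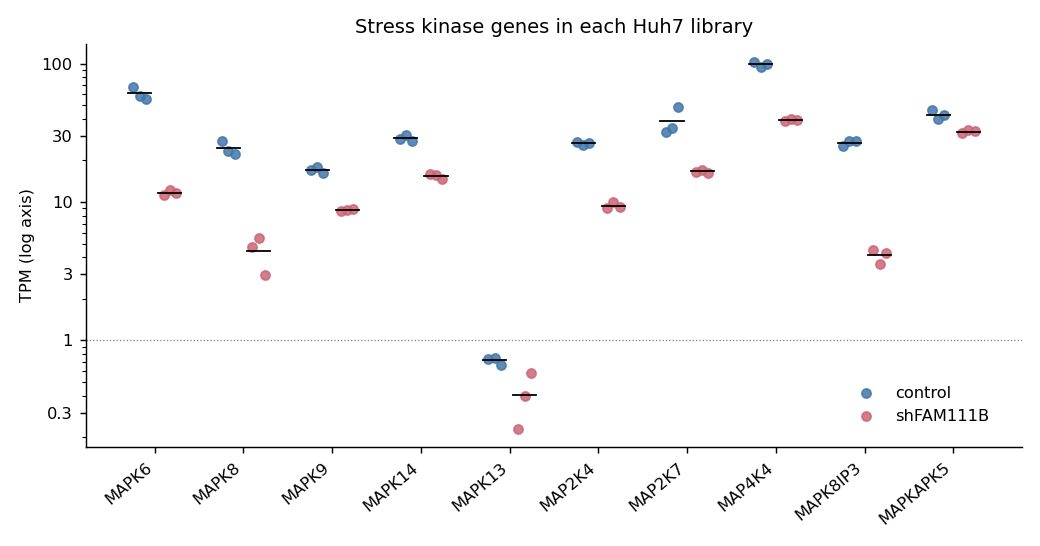
TPM of the 10 genes (log axis) in the 3 control and 3 shFAM111B libraries of Huh7 cells, with a point per library, a bar at each mean and a dotted line at 1 TPM. The shFAM111B points of every gene lie below its control points, with the widest gaps for MAPK6, MAPK8 and MAPK8IP3 and the narrowest among the tested genes for MAPKAPK5.

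The 5 MAP kinase genes differ in the motif that their upstream kinases phosphorylate, and the coding stretch around it is shown for each so that JNK, p38 and ERK3 can be told apart at the site of activation. The capitals mark the 3 codons of the motif, which reads threonine, proline, tyrosine in JNK, threonine, glycine, tyrosine in p38 and serine, glutamate, glycine in ERK3. Sequences are 5′ to 3′ on the coding strand, from GENCODE v29 transcripts on GRCh38.
MAPK8: agttttatgatgACGCCTTATgtagtgact
MAPK9: aacttcatgatgACCCCTTACgtggtgaca
MAPK14: gatgatgaaatgACAGGCTACgtggccact
MAPK13: gacgccgagatgACTGGCTACgtggtgacc
MAPK6: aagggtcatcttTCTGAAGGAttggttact
The MAPK8 stretch lies in exon 5 of 11 of its principal transcript, at chr10:48420239-48420268 on the plus strand. That of MAPK9 lies in exon 6 of 12, at chr5:180249025-180249054 on the minus strand. Those of MAPK14 and MAPK13 lie on the plus strand, each in exon 7 of 12, at chr6:36075878-36075907 and chr6:36136686-36136715. The MAPK6 stretch crosses from exon 2 to exon 3 of 6, at chr15:52047013-52047015 and chr15:52049993-52050019 on the plus strand.

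MAPK6 (ENSG00000069956, chromosome 15 from 51952106 to 52067372) was the second most abundant of the 10 in control cells. In the order of the replicate numbers, which is kept for all genes, the control libraries had 68.45, 58.72 and 55.81 TPM and the shFAM111B libraries 11.21, 12.22 and 11.63 TPM. The shFAM111B libraries lay close together, and their mean was 19.2% of the control mean. The log2 fold change was -2.28 (standard error 0.0888), or -1.92 relative to the median gene. The annotation holds 6 processed pseudogenes named after MAPK6, which could share its reads, and the highest TPM of any of them in any library was 0.04.

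The JNK genes MAPK8 and MAPK9 differed in the size of their change and in their order. MAPK8 (ENSG00000107643, chromosome 10), which encodes JNK1, had 27.8, 23.47 and 22.32 TPM in the control libraries and 4.72, 5.51 and 2.99 TPM in the shFAM111B libraries. Its shFAM111B replicate 3 was the lowest, and the relative spread was the largest of the tested stress kinase genes in that group (4.41 ± 1.29 TPM, SD, n = 3). MAPK9 (ENSG00000050748, chromosome 5), which encodes JNK2, had 17.16, 17.95 and 16.14 TPM in control and 8.67, 8.77 and 8.95 TPM in shFAM111B libraries. The log2 fold changes were -2.26 (standard error 0.19) for MAPK8 and -0.88 (standard error 0.0759) for MAPK9. Within each library, the ratio of MAPK8 to MAPK9 does not depend on a factor that scales the whole library. It was 1.62, 1.31 and 1.38 in control and 0.544, 0.628 and 0.334 in shFAM111B replicates 1 to 3. MAPK8 was the more abundant JNK transcript in every control library and MAPK9 in every shFAM111B library. MAPK10, the JNK3 gene known from neurons, had 0.657 ± 0.258 TPM in control and 0.247 ± 0.29 TPM in shFAM111B cells (SD, n = 3), and its groups overlapped. Counted together, the 3 JNK genes had 42.27 ± 2.998 TPM in control and 13.4 ± 0.906 TPM in shFAM111B cells (SD, n = 3), and the share of MAPK8 was 57.9% ± 2.98 and 32.4% ± 7.61 (SD, n = 3).

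Among the p38 genes, MAPK14 (ENSG00000112062, p38 alpha) had 28.52, 30.34 and 27.69 TPM in control and 16.03, 15.78 and 14.6 TPM in shFAM111B libraries, a log2 fold change of -0.86 (standard error 0.0706) that did not reach the 2-fold limit. MAPK13 (ENSG00000156711, p38 delta) was hardly expressed, with 0.73, 0.75 and 0.67 TPM in control and 0.23, 0.4 and 0.58 TPM in shFAM111B libraries. At these levels the difference of -0.30 on the log2(TPM + 1) scale rests on fractions of a TPM, and the highest shFAM111B library was 0.09 TPM below the lowest control. The ratio of MAPK14 to MAPK13 ran from 39.1 to 41.3 in control and from 25.2 to 69.7 in shFAM111B libraries, so the spread in the latter covered the control values. The p38 paralog MAPK12 (p38 gamma), which was not among the 10 genes, had 15.9 ± 3.01 TPM in control and 18.0 ± 1.55 TPM in shFAM111B cells (SD, n = 3). Its log2 fold change of 0.18 did not pass the test (Benjamini-Hochberg adjusted p = 0.277, limma), and its groups overlapped. It ranged from 0.064 without control replicate 1 to 0.31 without control replicate 3 (adjusted p = 0.0443, limma). Under 4 of the 5 other scalings it lay between 0.57 and 0.71, with adjusted p between 0.00297 and 0.00772 (limma), and it was 0.06 after rescaling to nuclear protein-coding genes. MAPK11 (p38 beta) stayed near the filter, at 0.863 ± 0.143 and 0.627 ± 0.071 TPM (SD, n = 3). MAPK14 made up 62.4% ± 4.76 of the p38 transcripts in control and 44.9% ± 2.44 in shFAM111B cells, against 34.2% ± 4.70 and 52.1% ± 2.28 for MAPK12 (SD, n = 3). In each library the ratio of MAPK12 to MAPK14 lay between 0.465 and 0.693 in control and between 1.04 and 1.24 in shFAM111B cells, so the order of the 2 transcripts was turned in all 3 shFAM111B libraries.

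**Figure D2:**
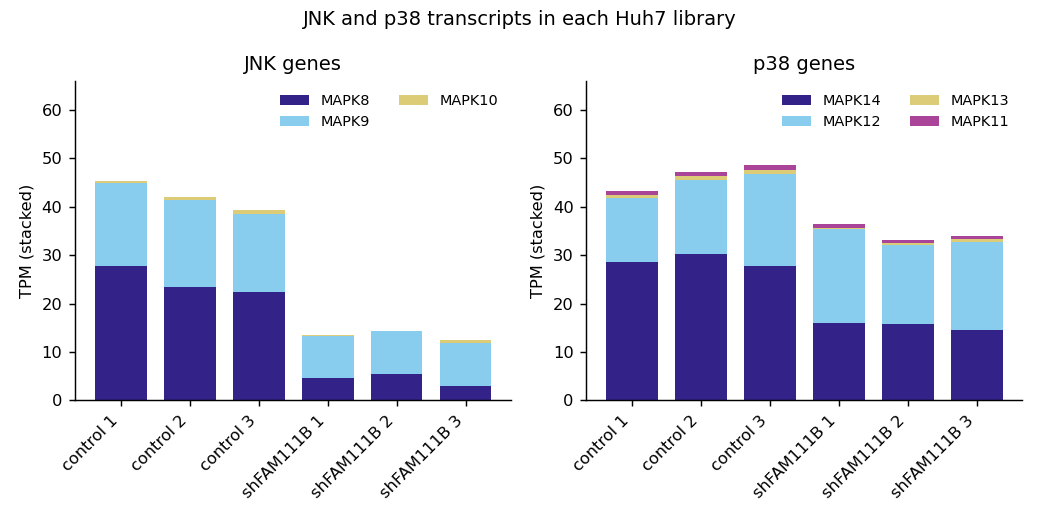
Stacked TPM of the JNK genes (left) and the p38 genes (right) in each Huh7 library, with a bar per library and a colour per gene. MAPK8 is the larger JNK part in the 3 control libraries and MAPK9 in the 3 shFAM111B libraries, while in the p38 stack MAPK14 shrinks and MAPK12 keeps a similar height.

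The upstream kinases MAP2K4 (chromosome 17, MKK4) and MAP2K7 (chromosome 19, MKK7) were both lower in shFAM111B cells. MAP2K4 had 27.26, 26.01 and 26.58 TPM in control and 9.01, 10.0 and 9.22 TPM in shFAM111B libraries, and the log2 fold change of -1.41 (standard error 0.0715) was far larger than the spread within either group. MAP2K7 had 32.16, 34.56 and 48.37 TPM in control and 16.53, 17.18 and 16.23 TPM in shFAM111B libraries. Control replicate 3 stood above the others, and without it the log2 fold change of MAP2K7 went from -1.14 to -0.96, under the 2-fold limit. The ratio of MAP2K4 to MAP2K7 was 0.848, 0.753 and 0.55 in control and 0.545, 0.582 and 0.568 in shFAM111B replicates 1 to 3, with overlapping groups, and the overlap came from the same control library. An antisense gene, AC010336.4, shares exonic bases with MAP2K7.

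MAP4K4 (ENSG00000071054, chromosome 2), a MAP4K upstream of JNK that is also known for its role in cell migration, was the most abundant of the 10 in both groups. It had 102.47, 95.14 and 98.94 TPM in control and 38.6, 39.92 and 39.08 TPM in shFAM111B libraries. Its log2 fold change of -1.31 had the smallest standard error of the tested stress kinase genes (0.0504). MAPK8IP3 (ENSG00000138834, chromosome 16 from 1706183 to 1770317) encodes JIP3, a scaffold that binds JNK with its upstream kinases and links cargo to kinesin. It had 25.28, 27.74 and 27.82 TPM in control and 4.5, 3.55 and 4.31 TPM in shFAM111B libraries, the largest difference of the 10 (log2 fold change -2.45, standard error 0.101), and the shFAM111B mean was 15.3% of the control mean. NME3, a nucleoside diphosphate kinase gene on the opposite strand that shares exonic bases with MAPK8IP3, moved the other way, from 18.9 ± 0.888 to 53.0 ± 2.64 TPM (SD, n = 3). Whether strand was used in counting is not given in the sources used here, so reads in the shared bases cannot be assigned. NME3 and MAPKAPK5-AS1 (below) were chosen after their values were seen.

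MAPKAPK5 (ENSG00000089022, chromosome 12) encodes MK5, which ERK3 binds and activates. It had 46.54, 39.58 and 42.41 TPM in control and 31.37, 33.01 and 32.48 TPM in shFAM111B libraries. The log2 fold change of -0.39 (standard error 0.072) was the smallest of the tested stress kinase genes and lay within 0.04 of the median gene. The sign of this difference is therefore a matter of scaling, and it turned to 0.0486 after median-of-ratios scaling, 0.00909 after upper-quartile scaling and 0.14 after subtraction of each library's median. The ratio of MAPK6 to MAPKAPK5, which no library-wide factor changes, was 1.47, 1.48 and 1.32 in control and 0.357, 0.37 and 0.358 in shFAM111B replicates 1 to 3. The kinase gene was thus more abundant than its partner in every control library and less abundant in every shFAM111B library. The antisense RNA MAPKAPK5-AS1, on the other strand with shared exonic bases, went from 23.3 ± 3.99 to 48.8 ± 8.08 TPM (SD, n = 3). The difference was 1.04 on the log2 scale (adjusted p = 0.000659, limma's moderated test). The pseudogene ADAM1A also shares exonic bases with MAPKAPK5, on the same strand. The call of MAPKAPK5-AS1 was lost without control replicate 2 (0.958), control replicate 3 (0.986) or shFAM111B replicate 3 (0.915) and after rescaling to nuclear protein-coding genes (0.92).

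The order of the levels changed with these differences. In control cells MAP4K4 stood first at 98.8 TPM and MAPK6 second at 61.0 TPM, followed by MAPKAPK5 and MAP2K7, whose ranges overlapped. MAPK14, MAPK8IP3, MAP2K4 and MAPK8 followed at means from 28.8 down to 24.5 TPM, and each overlapped with its neighbour in that order. In shFAM111B cells MAPKAPK5 stood second at 32.3 TPM, MAPK6 stood at 11.7 TPM between MAPK14 and MAP2K4, and MAPK8 and MAPK8IP3, the only overlapping neighbours in that group, stood at 4.41 and 4.12 TPM above MAPK13.

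The 10 genes were spread over 9 chromosomes. Of the 9 that passed the filter, 7 had an annotated transcript of over 4000 nt, as did 37.7% of the 14251 tested genes with a length. Across all tested genes the median change differed with transcript length. The median log2 fold change was 0.43 up to 1000 nt, 0.17 where the longest transcript in the annotation had between 1000 and 2000 nt, -0.32 between 2000 and 4000 nt, -0.78 between 4000 and 8000 nt and -0.94 above 8000 nt. MAPK6 (5345 nt), MAPK8 (6046 nt), MAPK9 (4815 nt), MAPK14 (4319 nt), MAP4K4 (7640 nt) and MAPK8IP3 (5661 nt) belong to the class of 4000 to 8000 nt, in which 37.9% of the genes were called lower. In that class MAPK9 and MAPK14 lay near the median, and MAPK6, MAPK8 and MAPK8IP3 lay more than 1.4 below it. The classes and the trend below use the longest transcript of every gene. The principal transcripts of MAPK14 (3779 nt) and MAP4K4 (3792 nt) are shorter and would put both in the class of 2000 to 4000 nt. MAPK14, at -0.86, was lower than the median of that class. MAP2K4 (3856 nt) and MAP2K7 (3430 nt) were lower than the median of their class of 2000 to 4000 nt. MAPKAPK5 has the longest annotated transcript of the 10, 11349 nt, but its principal transcript has 1630 nt, and the transcript expressed in these cells is not known from TPM per gene. With the trend of the log2 fold change with length and mean expression over 14251 tested genes subtracted, the values were -1.64 for MAPK8IP3, -1.57 for MAPK6, -1.42 for MAPK8, -0.83 for MAP2K4, -0.66 for MAP2K7, -0.57 for MAP4K4, -0.23 for MAPK14, -0.17 for MAPK9 and 0.51 for MAPKAPK5, the last computed with its longest transcript. Of all tested genes with a length, 53.2% lay below this trend. Whether transcript length or RNA quality had a part in these differences was not tested.

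The values of the 10 genes moved with the scaling of the libraries, by unequal steps under quantile normalization, which took MAP4K4 from -1.31 to -1.12 and MAPK9 from -0.88 to -0.37. Under 5 other scalings the median gene lay between -0.49 and 0.17. The log2 fold change stayed between -2.62 and -1.92 for MAPK8IP3, between -2.42 and -1.75 for MAPK6, between -2.42 and -1.73 for MAPK8, between -1.55 and -0.88 for MAP2K4, between -1.44 and -0.78 for MAP4K4, between -1.27 and -0.60 for MAP2K7, between -1.02 and -0.35 for MAPK9 and between -0.99 and -0.33 for MAPK14. The number of the 10 genes called lower was 3 after median-of-ratios scaling, where 12.5% of all tested genes were, and 7 after rescaling to nuclear protein-coding genes, where 29.2% were.

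**Figure D3:**
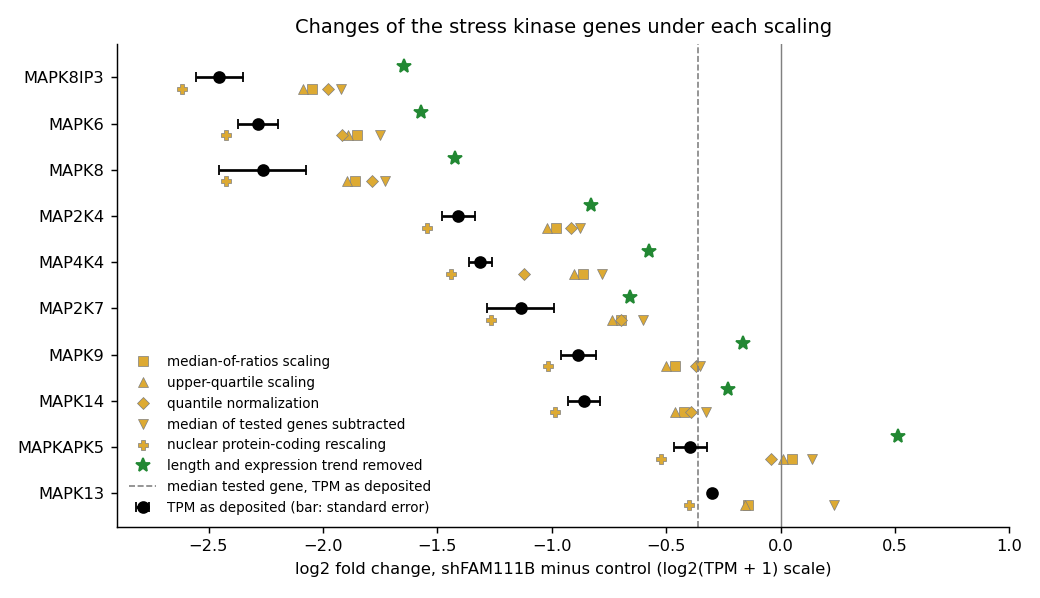
Log2 fold changes (shFAM111B minus control, log2(TPM + 1) scale) of the 10 genes with the TPM as deposited (black, with the standard error where tested), under other scalings (yellow, 5 for each gene and 4 for MAPK13) and with the length and expression trend removed (green). MAPK8IP3, MAPK6 and MAPK8 stay below -1.4 throughout, and MAPKAPK5 and MAPK13 change sign.

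The other genes of the pathway were taken from a list of 66 genes written by role. Earlier results of these data were known when it was written, so its counts and medians are a description from which nothing is read. Of these, 59 were tested, and 24 were called lower (40.7%, against 23.7% of all tested genes) and 1 higher. Their median log2 fold change was -0.92, against -0.36 for all tested genes, and -0.25 after subtraction of the trend with length and expression. At an adjusted p under 0.05 with no limit on the fold change, 48 were lower and 3 higher, where 50.9% and 21.1% of all tested genes were. None of the 3 tested MAP kinase paralogs, the 2 MAP2K genes or the 5 substrate kinases was called, whereas 7 of 11 adaptors and scaffolds, 5 of 9 transcription factor targets, 4 of 8 phosphatases, 3 of 5 MAP4K genes and 5 of 16 MAP3K genes were called lower.

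Next to the members, MAP2K3, an activator of p38, went from 34.3 ± 2.89 to 16.9 ± 0.6 TPM (SD, n = 3). The difference of -0.98 on the log2 scale (adjusted p = 3.32e-05, limma) was just short of the 2-fold limit. It passed that limit with a pseudocount of 0.1 (-1.017) and without control replicate 3 (-1.032) or shFAM111B replicate 2 (-1.004). After rescaling to nuclear protein-coding genes it was -1.11, and under the 4 other scalings it lay between -0.58 and -0.45. Its partner MAP2K6 had 3.86 ± 0.102 and 3.61 ± 0.678 TPM (SD, n = 3) and did not pass the test (log2 fold change -0.084, adjusted p = 0.594, limma). Its sign turned under 4 of the 5 other scalings, where it lay between 0.24 and 0.45, the highest of these after subtraction of each library's median (adjusted p = 0.0191, limma). MAPK4, the paralog of ERK3, had 0.53 ± 0.0794 TPM in control and 1.26 ± 0.128 TPM in shFAM111B cells (SD, n = 3; log2 fold change 0.56). It was under 1 TPM in every control library and over 1 TPM in every shFAM111B library. MAPK4 thus passed the filter only through the group where it was higher, so its test supports nothing. Its log2 fold change was 1.11 with a pseudocount of 0.1 and 1.10 after subtraction of each library's median. Of the JIP scaffolds, SPAG9 (JIP4) fell from 29.1 ± 2.50 to 8.20 ± 0.881 TPM (SD, n = 3; log2 fold change -1.71, adjusted p = 1e-05, limma), while MAPK8IP1 and MAPK8IP2 had under 2 TPM in every library. Among the substrate kinases, MAPKAPK2 went from 34.4 ± 1.82 to 29.1 ± 0.823 TPM (SD, n = 3; log2 fold change -0.23), a difference whose sign turned under 4 of the 5 other scalings, and MAPKAPK3 from 9.19 ± 0.708 to 5.32 ± 2.04 TPM (SD, n = 3; log2 fold change -0.73, adjusted p = 0.0183, limma). Under the same 4 scalings MAPKAPK3 lay between -0.37 and -0.20, with adjusted p between 0.167 and 0.429 (limma), and its adjusted p lay between 0.0501 and 0.0574 without control replicate 1 or 3 or shFAM111B replicate 1 or 3.

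Higher in the cascade, the largest falls among MAP3K genes were those of MAP3K20 (ZAK, which senses stalled ribosomes), MAP3K2 and TAOK3, with log2 fold changes of -1.73, -1.67 and -1.59. MAP3K6, a relative of ASK1, was the only gene of the list called higher, from 5.38 ± 0.524 to 13.8 ± 2.72 TPM (SD, n = 3; log2 fold change 1.20, adjusted p = 0.000301, limma), and it is named for that value. Beside MAP4K4, MAP4K3, MAP4K5 and TNIK fell, with log2 fold changes of -1.89, -1.58 and -1.08, and the call of TNIK was lost without control replicate 2 (-0.99) or shFAM111B replicate 1 (-0.99). The TAK1 adaptors TAB3 and TAB2 fell by 2.12 and 1.57 on the log2 scale. Below the kinases, the JNK and p38 targets MEF2A, JUN and MEF2D fell by 2.14, 1.85 and 1.24. Of the 8 phosphatases, 4 were called lower, and the largest falls among these enzymes were those of the MAP kinase phosphatases, at -2.41 for DUSP8, -2.27 for DUSP1 and -2.05 for DUSP16. These 14 genes that fell were named for their large called changes in this same contrast. Their adjusted p (limma), at or below 0.000355, follows from that choice and supports nothing. MEF2D and TNIK fell short of the 2-fold limit under 4 of the 5 other scalings. Kinase activity was not measured.

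**Figure D4:**
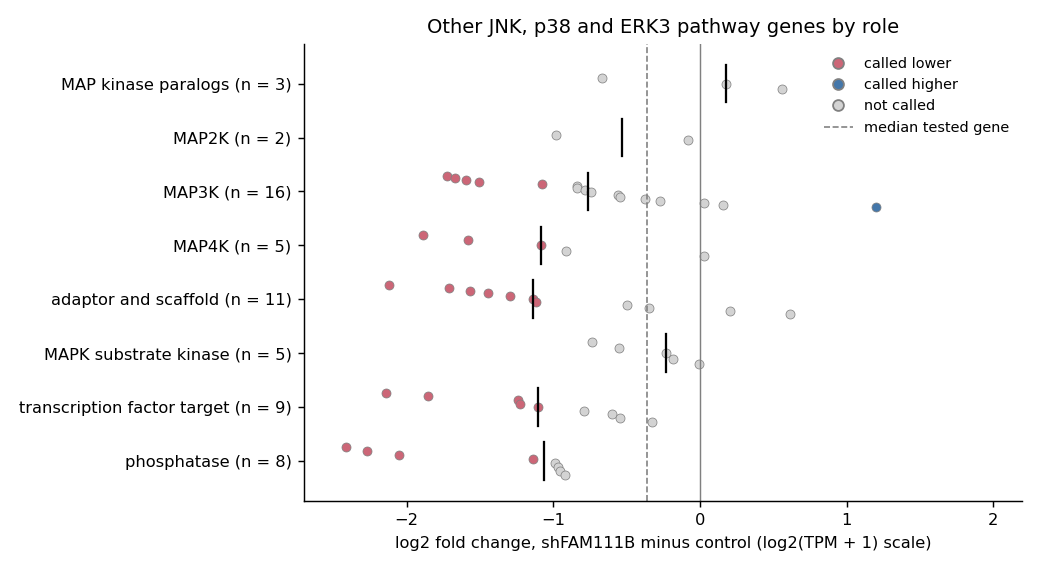
Log2 fold changes (shFAM111B minus control, log2(TPM + 1) scale) of the 59 tested genes of the pathway list by role, coloured by call, with a black line at the median of each role and a dashed line at the median of all tested genes. Red points lie among adaptors, transcription factors, phosphatases, MAP4K genes and MAP3K genes, and MAP3K6 is the single blue point.

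Over the 6 libraries, the genes whose pattern was most like that of MAPK6 were PROX1, a hepatocyte transcription factor, LIN28B, an RNA-binding protein that blocks let-7 maturation, and SLC35D1, a nucleotide-sugar transporter. Likeness was the root mean square distance between centred log2(TPM + 1) values, which was 0.0476, 0.0572 and 0.063 among 7430 genes whose mean reached 10 TPM. PROX1 had 28.65, 24.17 and 21.74 TPM in control and 4.04, 4.9 and 4.32 TPM in shFAM111B libraries. Like MAPK6, the 3 genes were highest in control replicate 1, which their choice by this distance favours, so nothing is read from it.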

How the data were processed

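RNA of 3 control and 3 shFAM111B Huh7 libraries was analysed. The authors deposited TPM per gene and library, their group means, and their own fold changes and p-values, which were not used. The submitters' notes name RSEM, DESeq2 and hg38, and the aligner, annotation, versions and strand setting are not given in the sources used here. TPM hold no depth, so the planned test for TPM was used and no count test. Groups were compared with limma 3.58.1 (R 4.3.3, lmFit and eBayes with a trend) on log2(TPM + 1), without covariates, with Benjamini-Hochberg adjustment over 14394 genes. Lengths and positions come from GENCODE v29, and the trend with length and expression was a loess fit (span 0.75). On simulated data with 200 changed genes among 14394, 197 were called, with 51 unchanged genes called. In the deposited libraries, 50.9% of all tested genes were lower and 21.1% higher at an adjusted p under 0.05 (limma). How the call rule performs with that many differing genes, or close to the 2-fold limit, was not tested. No pair of libraries shared over 0.889% identical TPM. The members and gene lists were chosen with earlier results of these data known. A further gene of the immune marker list is not reported here. Named genes are the members, FAM111B, listed paralogs, the 3 largest called changes of each role and the 3 genes most like MAPK6, and exceptions are stated. The deviations of same-numbered libraries had correlations of 0.054, 0.0349 and 0.0908, and those of differently numbered libraries ran from -0.0763 to 0.0442. These weak correlations cannot show or exclude a pairing. Alternatives were a pseudocount of 0.1, no filter, a replicate block, leaving out each library and 5 scalings. Tables and figures were made with Python 3.11.15, pandas 2.3.3 and matplotlib 3.10.9.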

Additional observations from a re-analysis of the deposited data

How the results depend on the processing

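TPM carry no depth, so precision rests on 3 libraries a group and on the spread over all tested genes that limma's test uses. MAPK13 lies below 1 TPM. What causes these shifts was not tested. Over all genes, 981 were called higher and 3409 lower. Median-of-ratios scaling gave 2030 and 1798, upper-quartile scaling 1907 and 1917, quantile normalization 1694 and 1849, and subtraction of each library's median 2597 and 1305, so that the share of calls that were higher went from 22.3% to between 47.8% and 66.6%. Rescaling to nuclear protein-coding genes moved it the other way, to 17.2% (873 higher and 4208 lower). The count of pathway genes called lower was 24, where 23.7% of all tested genes were. After subtraction of the median it was 13, where 9.07% of all tested genes were. At an adjusted p under 0.05 with no limit on the fold change it was 48, where 50.9% were. The count called higher (1) was 2 with a pseudocount of 0.1 or quantile normalization and 3 with the median subtracted or with the adjusted p alone. Signs turned for MAPK13 with the median subtracted (0.235), for MAPKAPK5 after median-of-ratios scaling (0.0486), upper-quartile scaling (0.00909), subtraction of the median (0.138) and removal of the length and expression trend (0.511), for MAPK8IP1 with the median subtracted (0.183), and for MAPKAPK2 under these 3 scalings and quantile normalization (0.207, 0.168, 0.299 and 0.154). The sign of MAP2K6, which was not called, turned under the same 4 (0.274, 0.242, 0.449 and 0.332). Without shFAM111B replicate 1 the log2 change of the ratio of MAPK14 to MAPK13 went from 0.0278 to -0.354, and without shFAM111B replicate 3 to 0.381. Whether libraries of the same number were paired is not given in the sources used here. With the replicate number as a block, 24 pathway genes were called lower and 1 higher, as without it.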
